A study of Medicago sativa with 86 samples.

Results

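The class of nitrogen fixation was compared in leaves of the alfalfa (Medicago sativa) cultivar Saranac kept at 600 ppm CO2: 11 libraries of plants labelled ineffective were set against 10 libraries of plants labelled effective. These 21 libraries were chosen by their labels alone, for cultivar and CO2 level, out of 86 in the series. The ineffective plants gave 4 libraries at 6 mM KNO3, 3 at 10 mM and 4 at 16 mM, and the effective plants gave 3, 4 and 3. Every plant of both classes received a rhizobium culture in an autoclaved substrate of clay and sand, was fed weekly with KNO3 in Hoagland solution and was grown under short days. The labels leave it unstated whether ineffective plants carry another plant genotype, another bacterium or both, and whether a library comes from 1 plant or from several. The p-values below therefore measure the spread between these libraries, which may in part be technical. Beside these libraries stand 21 of Saranac at 420 ppm CO2 (10 ineffective, 11 effective) and 22 of the cultivar Agate at 600 ppm (11 ineffective, 11 effective), in which the same classes were compared. All 64 other grouped libraries, Agate at 420 ppm included, also served to rank identifiers by level and to scale the levels. At 420 ppm, the ineffective Saranac library labelled replicate 3 at 6 mM has a title number that falls among those of 16 mM libraries; it was kept under its label, and values at 420 ppm are also given without it, an alternative chosen after the data were seen. In such bulk samples, fewer cells of a type and less RNA per cell cannot be told apart.

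Alfalfa is a legume whose roots form nodules with rhizobia. In an effective symbiosis the bacteria reduce atmospheric N2 to ammonium, which the plant assimilates and moves to the shoot, and the plant pays for this with sugars from its leaves. An ineffective symbiosis forms nodules that deliver little or no fixed nitrogen, so such a plant depends on mineral nitrogen such as nitrate. Leaves at elevated CO2 commonly assimilate more carbon, and the balance of leaf carbon and nitrogen is known to bear on the transcripts of photosynthesis and nitrogen metabolism. The title of the series places the comparison in this setting. The measured features are 49095 gene identifiers without names: 0 of them matched the reference table used here (assembly Bolivia_mono), so no role is given to any of them, and the label leaf could not be checked against marker genes.

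The 2 classes of Saranac at 600 ppm stood apart as whole transcriptomes. On the first principal component of log2 (CPM + 1), with 20.1% of the variance, the 11 ineffective libraries lay between 14.2 and 63.98 and the 10 effective libraries between -53.9 and -31.7. CPM are counts scaled to a common library total after TMM scaling, which equalises the bulk of the genes between libraries. Class accounted for 92.3% of this component and nitrate level for 0.076%. On the second component, with 13.6% of the variance, the order was different: nitrate accounted for 50.9% and class for 1.34%. Replicate 3 of effective plants at 10 mM was highest there at 94.6, and the next library lay at 49.6. Total counts ran from 15736764 to 25910031, at a median of 19305537, and were not distinguishable between the classes (exact permutation test within nitrate levels, two-sided, p = 0.616, adjusted over 4 measures 0.616). The median within-group SD of log2 (CPM + 1) over the tested identifiers was 0.40 in ineffective and 0.41 in effective plants.

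A few heavily counted transcripts took a smaller share of the reads in ineffective plants. The 100 identifiers with the highest mean CPM in the 64 grouped libraries outside the comparison held 24.7 ± 2.30% of the counts in ineffective plants (SD, n = 11, lowest 21.2%, median 24.3%, highest 28.3%). In effective plants they held 33.1 ± 3.92% (SD, n = 10, lowest 29.5%, median 32.1%, highest 41.001%). The classes did not overlap, and the difference within nitrate levels was -8.43 percentage points (exact permutation test, two-sided, p = 2.33e-05, the smallest that 42875 permutations can give, adjusted p = 4.66e-05). The top 10 alone held 7.82 ± 1.08% in ineffective plants (SD, n = 11) and 12.5 ± 1.83% in effective plants (SD, n = 10), a difference of -4.82 points with the same p. With identifiers ranked over the 21 libraries instead, the difference for the top 10 was -4.05 points. At a common depth of 15736764 counts, 24078 ± 329 identifiers were detected in ineffective plants (SD, n = 11) and 24308 ± 196 in effective plants (SD, n = 10). That difference of -224 was not past the threshold (exact permutation test, two-sided, p = 0.0899, adjusted p = 0.12).

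**Figure D1:**
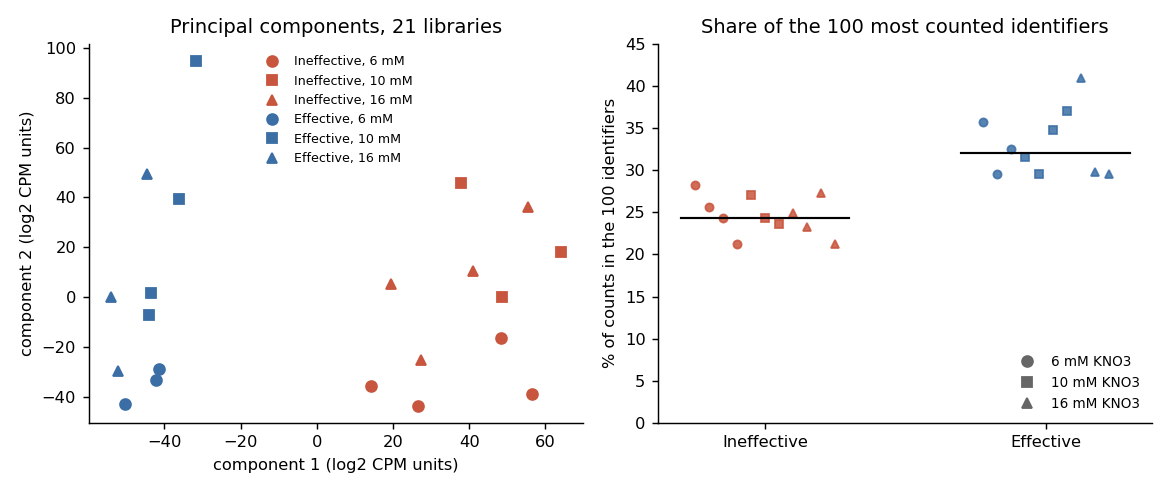
Left, the 21 libraries on the first and second principal component of log2 (CPM + 1), with class by colour and nitrate level by symbol. Right, the percent of each library's counts held by the 100 identifiers (vertical axis from 0), with a line at the class median of 24.3% for ineffective and 32.1% for effective plants; the highest ineffective library (28.3%) lies below the lowest effective one (29.5%).

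Of 21965 identifiers with enough counts to be tested, 2388 (10.9%) were higher and 2476 (11.3%) lower in ineffective plants, together 4864 (22.1%) at an adjusted p under 0.05 with nitrate level as a block (quasi-likelihood F-test of edgeR, Benjamini-Hochberg adjustment). A further 14717 identifiers had no count in any of the 21 libraries. The called identifiers that were higher had a median log2 fold change (ineffective over effective) of 0.85, and the middle of their distribution ran from 0.55 to 1.42 between quartiles. Those that were lower had a median of -1.01, with quartiles 0.66 and 1.68 below 0. A change of more than 1 on the log2 scale was found for 2215 called identifiers (10.1% of those tested), 970 that were higher and 1245 that were lower, of more than 2 for 360 and 457, and of more than 3 for 166 and 188. The identifiers that were higher were more strongly counted, with a median level of 21.2 CPM, against 9.13 CPM for those that were lower and 7.54 CPM for all tested.

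The balance of higher and lower calls depended on the scaling. With TMM scaling 49.1% of the calls were higher, and the median log2 fold change of all tested identifiers was -0.02. With library totals in its place, 3079 were higher and 1723 lower, so 64.1% of the calls were higher, and the median of all tested identifiers was 0.08. This alternative was chosen after the data were seen. Leaving out 1 library at a time left 4194 to 4968 calls, and 1686 of the identifiers that were higher and 1599 of those that were lower (67.5% of the calls) stayed called in all 21 such fits. Leaving out all libraries of 1 replicate number left between 2709 (without replicate 4) and 3160 calls (without replicate 1), with 2856 without replicate 3 and 3102 without replicate 2. Few of the calls came from a single library: more than 50% of the summed CPM of the class with the higher level lay in 1 library for 23 of the identifiers that were higher (0.963%) and 50 of those that were lower (2.02%). Among changes of more than 3 these were 18 and 30.

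**Figure D2:**
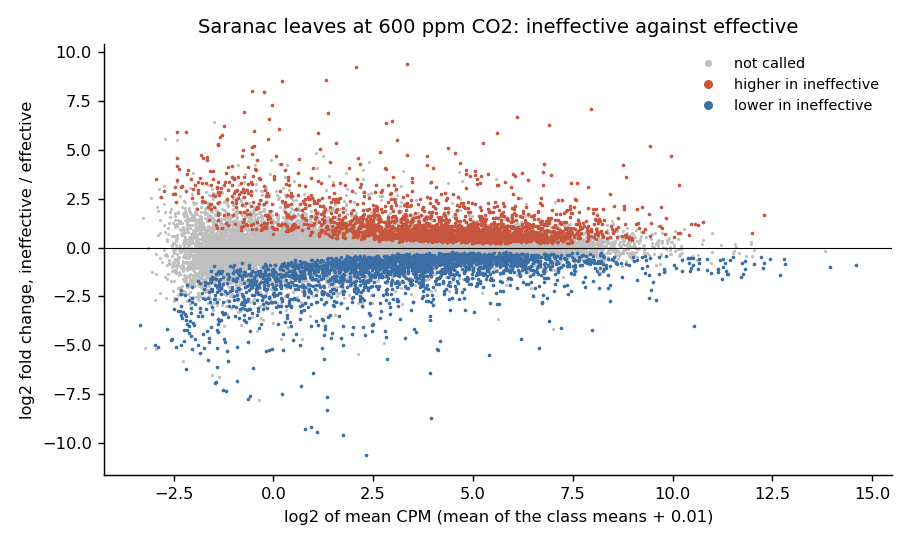
Each point is 1 of the 21965 tested identifiers: the horizontal axis is log2 of its mean CPM, and the vertical axis is the log2 fold change of ineffective over effective Saranac at 600 ppm. Red points (2388) are higher and blue points (2476) lower in ineffective plants at an adjusted p under 0.05; at the right end, among the most counted identifiers, most coloured points lie below 0.

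For 267 identifiers (1.22% of those tested) every library of 1 class lay above every library of the other: 139 (0.633%) were higher and 128 (0.583%) lower in ineffective plants. All 267 were called, and 264 of them stayed called whichever single library was left out. They were selected for full separation in these same libraries, which remains when any 1 is left out, so both numbers are a description. With library totals in place of TMM the numbers without overlap were 201 higher and 83 lower. For 0 of the 267 did the ineffective libraries also lie beyond every other grouped library of the series. The largest differences of this kind, at a mean of at least 1 CPM and with 1 sign at each nitrate level, are described next.

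MsG0880042725.01 was nearly absent from effective plants. It had 0.745 CPM in the lowest, 2.38 in the median and 16.5 CPM in the highest ineffective library, against 0, 0.0763 and 0.165 CPM in effective plants, of which 3 libraries had no count. Its log2 fold change was 5.88 ± 0.68 (SE, edgeR adjusted p = 1.77e-05), and it was 6.14, 5.32 and 6.58 at 6, 10 and 16 mM. The classes were thus apart at every nitrate level.

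MsG0880044306.01 followed the same pattern at a higher level. Its lowest, median and highest values were 4.75, 11.9 and 26.4 CPM in ineffective plants, against 0, 0.268 and 1.65 CPM in effective plants. The log2 fold change was 4.86 ± 0.64 (SE, edgeR adjusted p = 4.99e-05), with 4.52, 6.23 and 3.93 at 6, 10 and 16 mM. The lowest ineffective library thus lay above the highest effective one.

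MsG0180001094.01 had the reverse pattern. It stood at 0.033, 0.139 and 1.43 CPM (lowest, median, highest) in ineffective plants, against 3.87, 20.6 and 74.01 CPM in effective plants. Its log2 fold change was -6.43 ± 0.64 (SE, edgeR adjusted p = 5.48e-06), with -8.05, -5.20 and -6.67 at 6, 10 and 16 mM. All 11 ineffective libraries held some counts of it, so it was low rather than undetected.

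MsG0680030759.01 was lower and more uneven. It stood at 0.147, 0.576 and 2.01 CPM in ineffective plants, against 2.12, 8.02 and 145 CPM in effective plants. The log2 fold change was -5.20 ± 0.77 (SE, edgeR adjusted p = 0.000146), and -5.30, -3.62 and -6.52 at 6, 10 and 16 mM. The lowest effective library and the highest ineffective one were close to each other, at 2.12 and 2.01 CPM. All 4 identifiers kept their call and direction in 33 alternatives, including each library left out in turn. They were selected for size and separation in these same libraries, so that too is a description.

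**Figure D3:**
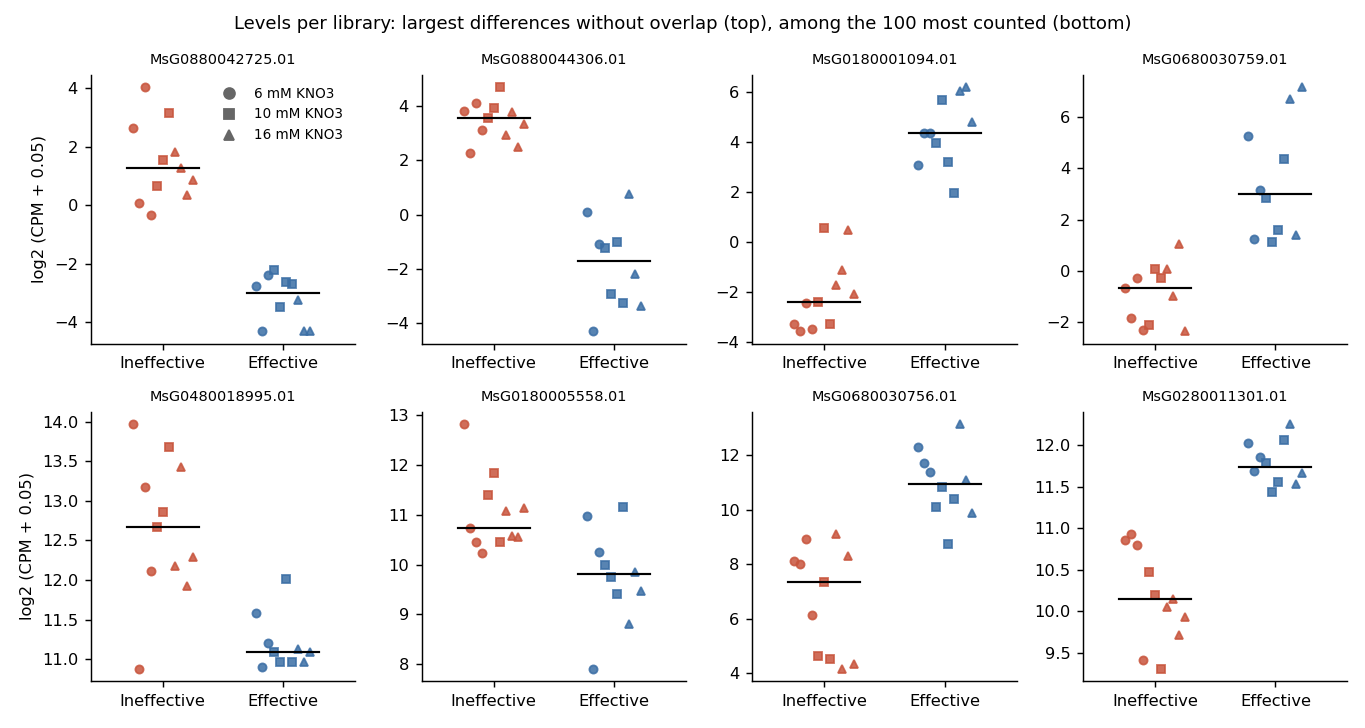
Level of 8 identifiers in each library as log2 (CPM + 0.05), ineffective libraries left and effective libraries right, with nitrate level by symbol and a line at the class median. In the top row the classes do not overlap; in the bottom row, from the 100 most counted identifiers, only MsG0280011301.01 has no overlap, with 635 to 1957 CPM in ineffective and 2781 to 4889 CPM in effective plants.

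Among the 100 most counted identifiers, 49 were lower and 8 higher in ineffective plants, beside 11.3% lower and 10.9% higher over all tested identifiers. Their median log2 fold change was -0.48, 75 of them had a negative one, 43 were not called, and 15, all lower, had no overlap between the classes. The 100 were ranked in the 64 grouped libraries outside the comparison, so they need not be the most counted in these 21. Since levels are not scaled by transcript length, they are the identifiers that drew the most reads in those 64, not necessarily the most transcripts. The balance was different further down the range. At ranks 101 to 1000, 130 of 900 were higher and 160 lower, at ranks 1001 to 5000, 718 of 4000 were higher and 470 lower, and of the 16965 tested from rank 5001 on, 1532 were higher and 1797 lower. With library totals in place of TMM, 10 of the 100 were higher and 48 lower, with a median of -0.39, and with the size factors of DESeq2 8 were higher and 49 lower.

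The largest changes among these 100 were in part shared by all libraries of a class. MsG0280011301.01 stood at 635, 1135 and 1957 CPM (lowest, median, highest) in ineffective plants, against 2781, 3421 and 4889 CPM in effective plants. Its log2 fold change was -1.60 ± 0.19 (SE, edgeR adjusted p = 2.47e-05), with -1.26, -1.66 and -1.87 at 6, 10 and 16 mM. The classes did not overlap.

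MsG0680030756.01 changed the most of the 100. It stood at 17.99, 162 and 548 CPM in ineffective plants, against 431, 1990 and 8979 CPM in effective plants, a log2 fold change of -4.00 ± 0.63 (SE, edgeR adjusted p = 0.000234). The ranges met, since the highest ineffective library exceeded the lowest effective one. This identifier and MsG0680030759.01, named above, belong to a run of 6 consecutive tested identifiers that were all lower in ineffective plants, with log2 fold changes of -5.50 to -4.00. In all, 7 such runs of 3 or more were found with changes of more than 2 in the same direction, 3 of them higher and 4 lower. The runs were looked for after the values were seen. Whether the numbers in the identifiers follow position is not stated in the sources used here, and near copies next to each other could share reads.

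MsG0480018995.01 was the identifier with the largest increase among the 100. It stood at 1882, 6494 and 16056 CPM in ineffective plants, against 1908, 2173 and 4137 CPM in effective plants, a log2 fold change of 1.68 ± 0.30 (SE, edgeR adjusted p = 0.000765). The ranges overlapped, and the lowest ineffective library, at 1882 CPM, lay below every effective one. MsG0180005558.01 stood at 1210, 1695 and 7237 CPM in ineffective plants, against 241, 894 and 2292 CPM in effective plants. Its log2 fold change was 1.29 ± 0.38 (SE, edgeR adjusted p = 0.0192), the classes overlapped, and its adjusted p was 0.0543, 0.0642 and 0.111 without replicate 1, 2 or 3.

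Some identifiers had counts in 1 class alone. No count was found in any ineffective library for 21 tested identifiers, of which 15 were called, and in any effective library for 8, of which 5 were called. Over all tested identifiers 22.1% were called. These identifiers passed the filter on low counts only through the class that had counts, so the numbers called are a description. MsG0880043721.01, the most counted of those without a count in ineffective plants, had 2186 counts in 5 of the 10 effective libraries, 49.2% of them in a single library, which makes it at least 783-fold lower in ineffective plants against a floor of 3 counts over the class. Its edgeR adjusted p was 0.0124, and it was 0.0617 without replicate 1, 0.0543 without replicate 4, and 1.00 in models with 1 coefficient for each group. MsG0780039162.01, the most counted without a count in effective plants, had 565 counts in 5 of the 11 ineffective libraries, 35.2% of them in a single one, and was at least 175-fold higher in ineffective plants. Its edgeR adjusted p was 0.0246, and it was 0.0520, 0.0865 and 0.118 without replicate 2, 3 or 4 and 1.00 in models with 1 coefficient for each group. Both identifiers were thus present in only some libraries of the class that held their counts. The log2 fold change of MsG0880043721.01 was 0 at 6 mM, and that of MsG0780039162.01 was 0 at 16 mM. In Saranac at 420 ppm MsG0780039162.01 was also called, at 6.59 ± 1.12 (SE, edgeR adjusted p = 0.00595), with no count in 3 of 10 ineffective libraries. MsG0880043721.01 was not called there, at -6.00 ± 1.76 (SE, edgeR adjusted p = 0.0867), with no count in 9 of 10 ineffective libraries. For neither did the class difference differ between the CO2 levels past the threshold. The floor covers counting error only, since reads are not independent molecules.

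At each nitrate level taken alone, fewer identifiers were called. At 6 mM 243 identifiers (1.11%) were higher and 374 (1.7%) lower in ineffective plants, together 2.81% of those tested (edgeR, 1 model of 6 groups). At 10 mM 304 (1.38%) were higher and 230 (1.05%) lower, together 2.43%. At 16 mM 180 (0.819%) were higher and 201 (0.915%) lower, together 1.73%. Each level holds 3 or 4 libraries a class, and the median SE of a log2 fold change was 0.49 at each of them. The median size of the log2 fold change over all tested identifiers was 0.51, 0.50 and 0.48 at 6, 10 and 16 mM. These counts moved widely with single replicate numbers: without replicate 1, 2, 3 or 4 they were 9, 191, 12 and 3 at 6 mM, 129, 26, 92 and 0 at 10 mM, and 44, 5, 109 and 16 at 16 mM.

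The class difference had the same direction at the 3 nitrate levels for most identifiers that were called over all of them. Of the 4864, 4797 (98.6%) had 1 sign at all levels, against 54.4% of all tested, but the call rests on the same libraries, so that share is a description. Levels share no library with each other, but they were tested in 1 model with a shared estimate of the spread. The calls at the levels are therefore not independent, and their overlaps are a description. Called with the same sign were 182 identifiers at 6 and 10 mM (29.5% of the 6 mM list and 34.1% of the 10 mM list), 135 at 6 and 16 mM (21.9% and 35.4%) and 183 at 10 and 16 mM (34.3% and 48%). Of all tested identifiers 2.81%, 2.43% and 1.73% were called at 6, 10 and 16 mM. With opposite sign 0 were called at any pair of levels, and 98 were called at all 3, 49 higher and 49 lower. Across the 21965 identifiers, which are not independent, Pearson's r of the log2 fold changes was 0.41 (6 and 10 mM), 0.40 (6 and 16 mM) and 0.48 (10 and 16 mM), with Spearman's rho at 0.47, 0.45 and 0.54. The 100 most counted identifiers had a median log2 fold change of -0.40, -0.60 and -0.55 at 6, 10 and 16 mM.

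A direct test found no identifier whose class difference changed with nitrate. The interaction of class and nitrate called 0 of 21965 in edgeR, where the lowest adjusted p was 0.0914 and 1146 (5.22%) had an unadjusted p under 0.05. DESeq2 called 67, and without replicate 3 edgeR called 8. With 3 or 4 libraries in a group, differences between nitrate levels of the size of the SE given above would not be detectable.

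The same contrast of the classes was much smaller in Saranac at 420 ppm CO2. There 191 identifiers (0.896%) were higher and 139 (0.652%) lower in ineffective plants, together 1.55% of 21322 tested. Without the library of doubtful number the counts were 163 and 98. Over the 20822 identifiers tested at both levels the median SE was 0.27 at 600 ppm and 0.28 at 420 ppm, while the median size of the log2 fold change was 0.41 at 600 ppm and 0.26 at 420 ppm. The difference between the class differences was past the threshold for 1326 identifiers (5.78% of 22961), 688 (3%) with a higher and 638 (2.78%) with a lower value at 600 ppm. Without replicate 1, 2, 3 or 4 this count was 874, 187, 279 and 328, and without the library of doubtful number it was 1130. Each CO2 level was kept in chambers of its own, so the effect of CO2 cannot be told apart from that of the chamber, whereas the classes were compared within a level.

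The identifiers called for this interaction had their class difference mostly at 600 ppm. They were chosen by the interaction from these same libraries, so their medians and calls at both CO2 levels are a description. Those with a higher value at 600 ppm had a median log2 fold change of 0.79 at 600 ppm and -0.10 at 420 ppm (680 tested at both), and 599 of them were called higher at 600 ppm. Those with a lower value had medians of -1.06 at 600 ppm and 0.20 at 420 ppm (612 tested at both), and 484 of them were called lower at 600 ppm. Called at 420 ppm in the opposite direction were 13 of the 680 and 38 of the 612. Of the list that was higher at 420 ppm, 55 (28.8%, and 2.3% of the 600 ppm list) were also higher at 600 ppm, and of the list that was lower there, 49 (35.3%, and 1.98%) were also lower, beside 10.9% higher and 11.3% lower at 600 ppm over all tested identifiers. Only 2 in each list went the other way. The 2 CO2 levels share no library, and across the 20822 identifiers Pearson's r was 0.43 and Spearman's rho 0.33, as a description.

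The identifiers without overlap at 600 ppm were chosen for their separation there, so their values at both CO2 levels are a description. Of the 139 that were higher, 136 were tested at 420 ppm and 2 were called higher there, with a median log2 fold change of 0.10, against 1.03 at 600 ppm. Of the 128 that were lower, 127 were tested and 4 were called lower, with a median of -0.18, against -1.32 at 600 ppm. Without the library of doubtful number 1 and 2 were called, with medians of 0.11 and -0.19. Over all identifiers tested at 420 ppm 0.896% were called higher and 0.652% lower. With all libraries, 101 of the 136 and 101 of the 127 had the same sign at 420 ppm as at 600 ppm, and 0 were called in the opposite direction. Among the 100 most counted identifiers 0 were higher and 1 lower at 420 ppm, beside 0.896% and 0.652% of all tested there, with a median of -0.13. Without the library of doubtful number 0 were lower. The interaction called 5 of the 100 with a higher and 27 with a lower value at 600 ppm, beside 3% and 2.78% of all tested. Their share of the counts in Saranac at 420 ppm was 38.9 ± 6.53% in ineffective plants (SD, n = 10, from 24.7 to 44.3%) and 41.8 ± 0.734% in effective plants (SD, n = 11, from 41.1 to 43.3%). Libraries at 420 ppm took part in choosing these 100, so that share is a description.

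MsG0180001094.01 illustrates the contrast. With a log2 fold change of -6.43 at 600 ppm, it stood at 1.41, 50.05 and 161 CPM (lowest, median, highest) in ineffective Saranac at 420 ppm, against 15.4, 53.6 and 89.3 CPM in effective Saranac at 420 ppm. Its log2 fold change there was 0.0042 ± 0.51 (SE, edgeR adjusted p = 0.998), and the interaction was -6.66 ± 0.82 (SE, adjusted p = 4.31e-05). The low level was that of ineffective plants at 600 ppm.

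MsG0280006731.01 had 0 counts in all 11 ineffective libraries at 600 ppm and 169 counts in all 10 effective ones, at least 60.5-fold lower against 3 counts over the class. At 420 ppm it stood at 0, 1.12 and 3.61 CPM in ineffective plants, against 0, 0.955 and 14.8 CPM in effective plants, a log2 fold change of -0.52 ± 0.76 (SE, edgeR adjusted p = 0.787). The interaction had an adjusted p of 0.00615, and of 0.0571 and 0.0561 without replicate 3 or 4.

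In the other direction, MsG0880044306.01, described above, stood at 0, 0.024 and 1.02 CPM in ineffective plants at 420 ppm, against 0, 0.0643 and 0.699 CPM in effective plants at 420 ppm. The interaction was 5.32 ± 1.16 (SE, edgeR adjusted p = 0.00619). Without replicate 2 or 3 the adjusted p was 0.0673 and 0.0583. It was near 0 in both classes at 420 ppm.

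MsG0480018352.01 stood at 2.06, 4.75 and 51.98 CPM in ineffective plants at 600 ppm, against 0, 0.125 and 26.8 CPM in effective plants. At 420 ppm it stood at 0, 0.0872 and 4.80 CPM in ineffective plants, against 0, 0.637 and 2.07 CPM in effective plants. The interaction was 5.64 ± 1.42 (SE, edgeR adjusted p = 0.0154). Without replicate 4 the adjusted p was 0.191. At 600 ppm the classes overlapped through replicate 3 of effective plants at 10 mM, the library at 26.8 CPM.

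**Figure D4:**
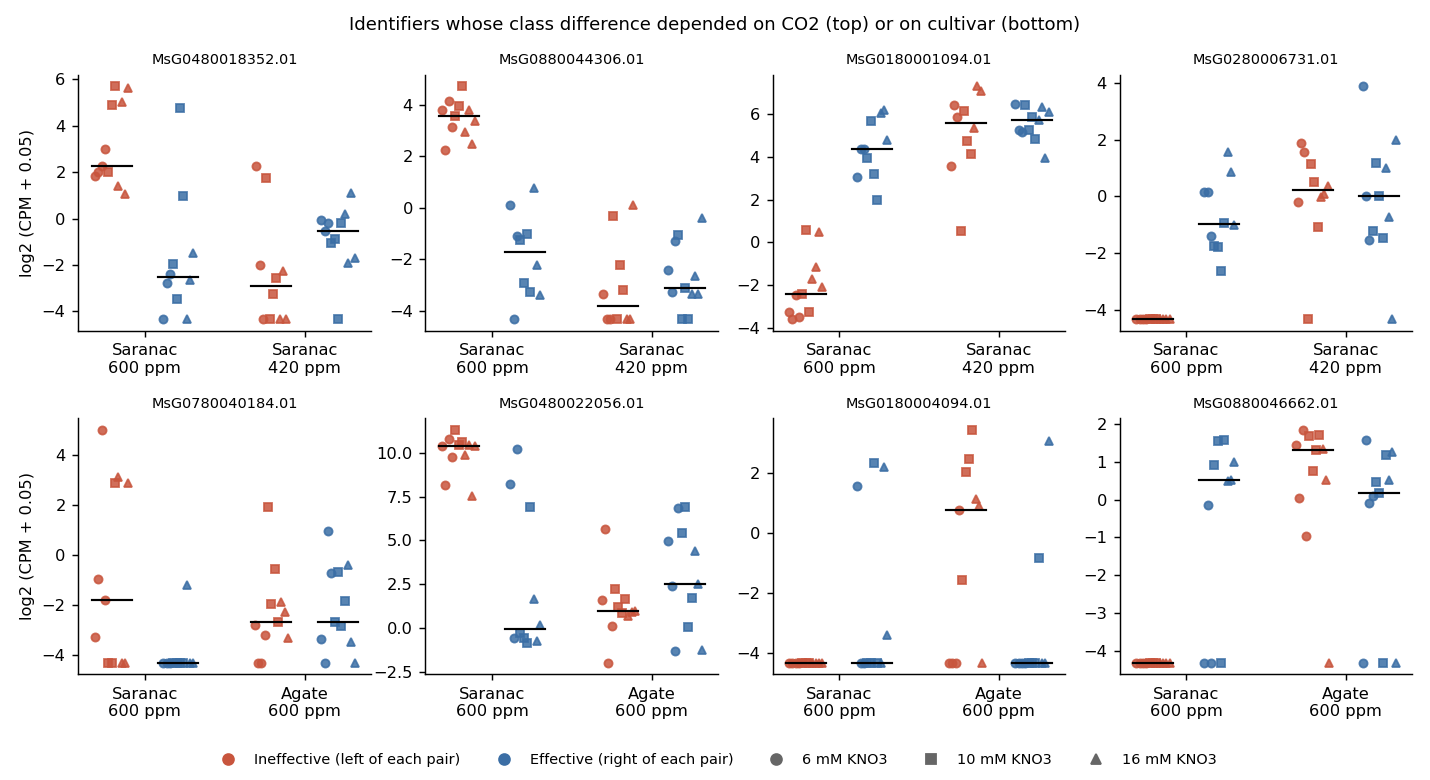
Level in each library as log2 (CPM + 0.05), ineffective left and effective right in each pair, for identifiers whose class difference depended on CO2 level in Saranac (top: 600 beside 420 ppm) or on cultivar at 600 ppm (bottom: Saranac beside Agate). Lines are medians; for MsG0180001094.01 the ineffective libraries at 600 ppm (0.033 to 1.43 CPM) lie below every effective library shown, whereas at 420 ppm the classes overlap.

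Agate at 600 ppm showed part of the same class difference. There 1158 identifiers (5.22%) were higher and 1057 (4.76%) lower in ineffective plants, together 9.98% of 22187 tested. The Saranac and Agate comparisons share no library, and 494 identifiers were higher in both (42.7% of the Agate list, 20.7% of the Saranac list) and 419 lower in both (39.6% and 16.9%), beside 10.9% higher and 11.3% lower in Saranac over all tested identifiers. In opposite directions 22 were higher in Agate and lower in Saranac, and 7 the reverse. Across 21254 identifiers tested in both, Pearson's r of the log2 fold changes was 0.32 and Spearman's rho 0.36, as a description.

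Of the identifiers without overlap in Saranac at 600 ppm, 75 of the 138 tested that were higher were also called higher in Agate, and 55 of the 126 that were lower were called lower, with 0 in the opposite direction. Over all identifiers tested in Agate 5.22% were called higher and 4.76% lower. The median log2 fold changes in Agate of those without overlap were 0.52 and -0.60, against 1.03 and -1.32 in Saranac, where they had been selected for their separation. Among the 100 most counted, 2 were higher and 34 lower in Agate, beside 5.22% and 4.76% of all tested there, with a median of -0.42. The interaction of class with cultivar called 2 of the 100 with a higher and 1 with a lower value in Saranac, which is near the 1.66% and 1.92% of all tested. Their share of the counts in Agate at 600 ppm was 25.8 ± 4.11% in ineffective plants (SD, n = 11) and 31.8 ± 3.89% in effective plants (SD, n = 11), with the classes overlapping (19.7 to 35.6% and 25.99 to 36.2%).

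**Figure D5:**
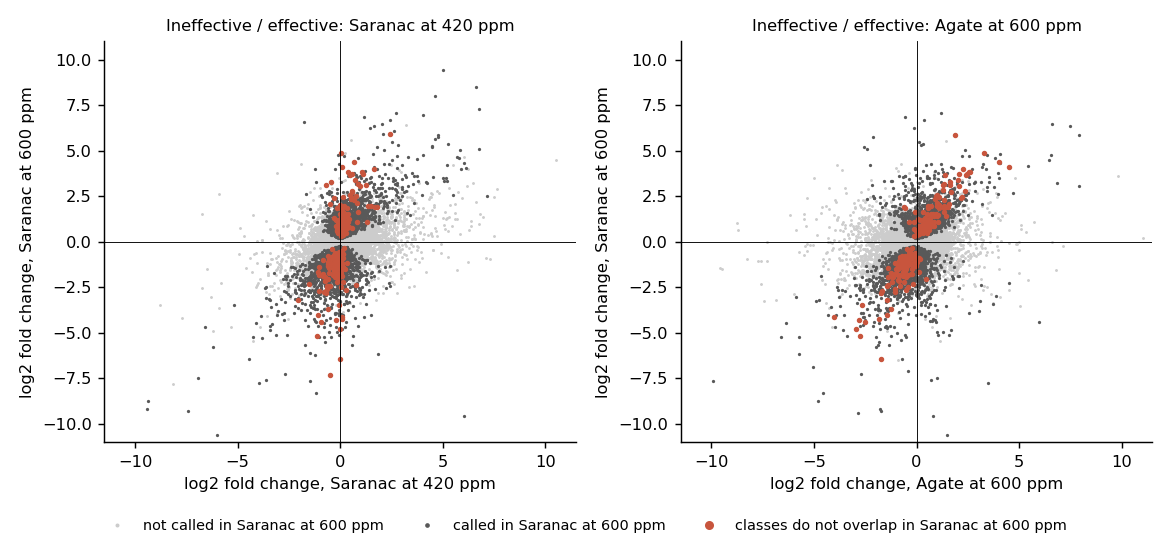
Log2 fold change of ineffective over effective Saranac at 600 ppm (vertical axis) against the same quantity in Saranac at 420 ppm (left) and in Agate at 600 ppm (right), 1 point per identifier tested in both. Red points, whose classes do not overlap in Saranac at 600 ppm, gather near 0 on the 420 ppm axis (medians 0.10 and -0.18) and farther out on the Agate axis (medians 0.52 and -0.60).

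The class difference of Saranac departed from that of Agate for 838 identifiers (3.58% of 23380), 388 (1.66%) with a higher and 450 (1.92%) with a lower value in Saranac. The count was 163, 397, 132 and 161 without replicate 1, 2, 3 or 4. These identifiers were chosen by the interaction from the same libraries, so their medians and calls in each cultivar are a description. Those with a higher value had a median log2 fold change of 0.91 in Saranac and -0.48 in Agate (359 tested in both), and 96 of them were called lower in Agate. Those with a lower value had medians of -1.18 in Saranac and 0.47 in Agate (397 tested in both), and 100 of them were called higher in Agate. The median SE was 0.28 in Saranac and 0.27 in Agate, and the median size of a log2 fold change was 0.41 in Saranac and 0.32 in Agate.

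MsG0480022056.01 was the most strongly counted of the identifiers named for this difference. It stood at 183, 1336 and 2507 CPM (lowest, median, highest) in ineffective Saranac at 600 ppm, against 0.498, 0.929 and 1174 CPM in effective Saranac, where 3 libraries were at 119, 294 and 1174 CPM and the others at 3.13 CPM or less. In Agate it stood at 0.206, 1.91 and 49.98 CPM in ineffective plants, against 0.355, 5.70 and 119 CPM in effective plants. The interaction was 7.96 ± 1.55 (SE, edgeR adjusted p = 0.00436). Without replicate 1 the adjusted p was 0.0872. High levels were found in all ineffective Saranac libraries, in a minority of effective Saranac ones and in no ineffective Agate library above 49.98 CPM.

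MsG0780040184.01 rested on fewer libraries. It had counts in 7 of 11 ineffective Saranac libraries (median 0.235, highest 32.3 CPM) and in 1 of 10 effective ones, at 0.384 CPM. In Agate its median was 0.105 CPM for ineffective plants and 0.104 CPM for effective plants. The interaction was 8.83 ± 2.12 (SE, edgeR adjusted p = 0.0194). Without replicate 1, 3 or 4 the adjusted p was 0.202, 0.143 and 1.00. The fitted size was 18.6 with DESeq2 and 5.93 without replicate 4, so with 9 of 10 effective Saranac libraries at 0 its size is poorly determined.

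MsG0880046662.01 had 0 counts in all 11 ineffective Saranac libraries at 600 ppm and 285 counts in 7 of the 10 effective ones, at least 102-fold lower against 3 counts over the class. In Agate it stood at 0, 2.46 and 3.55 CPM in ineffective plants, against 0, 1.08 and 2.93 CPM in effective plants. The interaction had an edgeR adjusted p of 0.00823, and of 0.0813 and 1.00 without replicate 1 or 3. MsG0180004094.01 likewise had 0 counts in ineffective Saranac and 235 counts in 4 of the effective libraries, at least 84.2-fold lower, and a median of 1.67 CPM in ineffective and 0 CPM in effective Agate. Its interaction had an edgeR adjusted p of 0.027, which ranged from 0.244 to 1.00 when any 1 replicate number was left out.

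Identifiers that differed between CO2 levels in effective Agate, a comparison that shares no library with this one, were also looked up between the classes of Saranac. Of 3146 identifiers called between 600 and 420 ppm in effective Agate (14.3% of 22008, 6.97% higher and 7.32% lower at 600 ppm), 1511 of those higher and 1587 of those lower were tested here. Of those higher with CO2, 113 (7.48%) were higher and 186 (12.3%) lower in ineffective Saranac, beside 10.9% and 11.3% over all tested identifiers, and their median log2 fold change was -0.07. Of those lower with CO2, 248 (15.6%) were higher and 211 (13.3%) lower in ineffective Saranac, with a median of 0.0056. The medians of both lists thus lay close to the -0.02 of all tested identifiers. The shares called higher, 7.48% and 15.6%, lay on either side of the 10.9% over all tested. The shares called lower, 12.3% and 13.3%, lay above the 11.3% over all tested. These differences in share were not tested.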

How the data were processed

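Polyadenylated RNA of leaves was sequenced with a stranded mRNA kit, per the labels' protocols. The authors deposited raw counts of reads for each gene identifier, made with featureCounts, per the submitters' processing notes. For its version and strand setting, the aligner, the genome build and the annotation, the sources used here give no statement. Reads of near-identical copies, alleles or overlapping genes could have been split or dropped, so single identifiers of such families are uncertain.

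Libraries were grouped by cultivar, fixation class, nitrate and CO2 label. Of the table's columns 1 was not used, because its labels contradict each other on fixation class. Within the groups of the 21 libraries none was a repeat of another: the lowest chi-square per gene over 27 pairs was 73.3, where sampling noise gives 1. Pairs of different groups and the libraries outside the comparison were not checked in this way.

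Identifiers were kept by filterByExpr and tested in edgeR 4.0.16 under R 4.3.3 by the quasi-likelihood F-test, with TMM scaling and robust dispersion, nitrate as a block, and Benjamini-Hochberg adjustment over all identifiers tested; an adjusted p under 0.05 is a call. The SE is the log2 fold change over the square root of F. Class differences at a nitrate level and their interaction with nitrate came from a model of the 21 libraries with 1 coefficient per group. The interactions with CO2 and with cultivar came from such models of the Saranac libraries at both CO2 levels and of the 600 ppm libraries of both cultivars. Levels are CPM with TMM factors over all 85 grouped libraries. Library measures were compared by an exact permutation test within nitrate levels, written in Python 3.11.15 with numpy 2.4.6. Spearman's rho came from scipy 1.17.1. The scripts were tested on simulated data. Alternatives were DESeq2 1.42.0, its size factors, no filter on low counts, a replicate block, models of other groups, and replicates or libraries left out.

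Named identifiers are at most 2 higher and 2 lower per comparison: called, at a mean of at least 1 CPM, with 1 sign at each nitrate level and no overlap between classes, by log2 fold change; the largest changes among the 100 most counted; those called both for an interaction and for the class difference; and the most counted with 0 counts in 1 class. The comparison, its lists and the rule were chosen with earlier results of these data known.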

Additional observations from a re-analysis of the deposited data

Results flagged for a closer look

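In 6 measures 1 library of effective Saranac at 600 ppm, not always the same, stood far from the other 9. The rule was the gap to its nearest neighbour relative to the range of the group. Named identifiers were screened in effective plants alone, and ineffective libraries were not screened as a class, so the flags do not set the classes apart. Chance passes the limit in about 1 in 20 groups of normally distributed values, a rate that need not hold for skewed CPM. For MsG0780040184.01, with 9 effective libraries at 0, the flag follows from the zeros. Replicate 1 at 16 mM had the fewest detected identifiers at the common depth, 23823. Replicate 3 at 10 mM, the library that also lay highest on the second principal component, had the highest level of MsG0480018995.01 (4137 CPM) and of MsG0480018352.01 (26.8 CPM). MsG0780040184.01 was highest in replicate 1 at 16 mM (0.384 CPM), the only effective library with a count. MsG0480022056.01 was highest in replicate 4 at 6 mM (1174 CPM), and MsG0880043721.01 in replicate 3 at 16 mM (48.1 CPM).

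The class difference itself differed between CO2 levels for 1326 identifiers and between cultivars for 838, by the tests of the interaction. On the log2 scale the difference between 600 and 420 ppm was 5.64 for MsG0480018352.01, 5.32 for MsG0880044306.01, -6.66 for MsG0180001094.01 and -6.27 for MsG0280006731.01. Between Saranac and Agate it was 8.83 for MsG0780040184.01, 7.96 for MsG0480022056.01, -11.19 for MsG0180004094.01 and -8.02 for MsG0880046662.01. For the 3 of these without a count in ineffective Saranac at 600 ppm, MsG0280006731.01, MsG0180004094.01 and MsG0880046662.01, the fitted value depends on the prior count and is no bound. For MsG0780040184.01, with a count in 1 of 10 effective Saranac libraries, the fitted value was 18.6 with DESeq2 and 5.93 without replicate 4.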

How the results depend on the processing

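Directions did not reverse for any named identifier under any alternative run. Named identifiers were selected for large changes in these same libraries, so that is a description. The 4864 calls between the classes of Saranac at 600 ppm were 6351 with DESeq2, 4315 without a filter on low counts, 5276 in a model of all 24 groups, 2215 with a log2 fold change over 1 as well, and 2709 to 3160 without 1 replicate number; without any 1 library they were 4194 to 4968. At 6 mM the 617 calls were 1967 with DESeq2, 334 without the filter and 3 to 191 without a replicate number. At 10 mM the 534 calls were 1914, 293 and 0 to 129 under the same alternatives, and at 16 mM the 381 calls were 1662, 229 and 5 to 109. The interaction with nitrate called 67 with DESeq2 and 0 to 8 without a replicate number. The 1326 calls of the CO2 interaction were 2317 with DESeq2, 187 to 874 without a replicate number and 1130 without 1 ineffective Saranac library at 420 ppm (6 mM, replicate 3), whose number lies among those of 16 mM libraries. Without it the 330 calls between the classes at 420 ppm were 261. The 838 calls of the cultivar interaction were 1803 with DESeq2, 555 without the filter and 132 to 397 without a replicate number. Leaving out a replicate number removes libraries from several groups at once, and the causes of the other shifts were not tested. The differences in the share of the 100 and of the top 10 identifiers kept their direction and stayed past the threshold.

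Groups share replicate numbers in the labels, which do not say that a number marks a shared plant, litter or day. Over 45 same-numbered pairs the correlation of deviations from the group means was -0.20 to 0.19 with a median of 0.003, and 0 of the 9 pairs at 1 nitrate level exceeded 0.1; 3 of 21 libraries correlated best with their own number. With the replicate block 4375 identifiers were called over all nitrate levels, 381 at 6 mM, 298 at 10 mM and 191 at 16 mM, 2 for the interaction with nitrate, 1229 for that with CO2 and 637 for that with cultivar. The adjusted p of MsG0880043721.01 was 0.0696 with the block.

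Depth limits the identifiers near 0: a class with no counts allows up to 3 counts over its libraries, and their fitted fold changes depend on the prior count. With 3 or 4 libraries a group, single nitrate levels and interactions are the least certain counts.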

Other observations

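The share of identifiers called between the classes of Saranac at 600 ppm was similar over the 9 prefixes (MsG00 to MsG08) of the identifiers, from 19.6 to 24.2%. It was lowest for the prefix MsG06, where 117 of 1634 tested identifiers were higher (7.16%) and 204 lower (12.5%) in ineffective plants, beside 10.9% and 11.3% over all tested. For MsG07 the balance was the other way, with 329 higher (12.9%) and 246 lower (9.65%) of 2550. What the digits of the prefix stand for is not stated in the sources used here. The prefixes were compared after the values were seen, and the difference between them was not tested.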
